A study of Mus musculus with 18 samples.

Results

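The genes described here are the ligands and receptors of the tumor necrosis factor (TNF) superfamily in the adipose tissue of mice lacking CSN8 in adipocytes. They were taken by name, as every gene whose symbol begins with Tnfsf or Tnfrsf followed by a number, together with Tnf, Lta, Ltb, Ltbr, Fas, Fasl, Cd27, Cd40, Cd40lg, Cd70, Eda, Edar, Eda2r and Ngfr. This gave 46 of the 55487 genes counted, of which 18 are ligands, 27 are receptors and 1, Tnfsf13os, is an antisense RNA that the naming rule took in and that encodes no ligand. RNA was sequenced from subcutaneous white adipose tissue (sWAT) of 12-week-old male mice and from brown adipose tissue (BAT) of 4-week-old male mice. In each tissue Csn8AKO mice (Csn8 f/f; AdipoqCre+) were set against Ctrl mice (Csn8 f/f; AdipoqCre-, labelled WT), with 4 libraries per genotype in sWAT and 5 per genotype in BAT. All mice carried the floxed alleles, and the genotypes differed in the Cre transgene, which the adiponectin promoter drives in adipocytes and which deletes exons 4 to 6 of Csn8. The other cells of the tissue, such as macrophages, endothelium and fibroblasts, keep the gene but contribute to the RNA of the whole tissue, so that a change in the number of cells of a type and a change in RNA per cell cannot be told apart. Age and tissue cannot be told apart either.

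The ligands of this family are mostly trimeric membrane proteins that can be shed from the cell surface. Many of the receptors they bind signal through TRAF adaptors to NF-kB and MAP kinases. Some that carry a death domain can also signal to caspase-8 and apoptosis. TNF itself is made largely by macrophages, and its receptor TNFR1 (Tnfrsf1a) is found on most cells whereas TNFR2 (Tnfrsf1b) is more restricted, with high levels on myeloid and lymphoid cells. In adipose tissue TNF is best known for lowering insulin signaling and for stimulating lipolysis. Other members guide lymphoid organs (lymphotoxins), B cell survival (BAFF and APRIL), osteoclasts (RANK ligand and RANK), and skin appendages (ectodysplasin).

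Values are CPM (read counts relative to the size of the library, with TMM scaling for composition within a tissue), and a member was called when edgeR's quasi-likelihood test gave a Benjamini-Hochberg adjusted p under 0.05 over all genes tested in that tissue. The libraries held 15835721 to 23109603 counted reads in sWAT and 26658593 to 66719937 in BAT, and genes of ribosomal RNA took 1.80% to 47.8% and 0.863% to 15.1% of them. Csn8 itself, listed as Cops8, had a log2 fold change of -0.12 in sWAT (adjusted p = 0.623) and -0.30 in BAT (adjusted p = 0.0211), and its count includes exons outside the deletion. The study reports loss of CSN8 protein in Csn8AKO sWAT and BAT by western blot. A pair of sWAT libraries stood apart in lymphocyte genes. The summed level of the 10 B cell markers was 276 CPM in Ctrl replicate 1 and 710 CPM in Csn8AKO replicate 2, against 8.76 to 26.8 CPM in the other 6, and the 10 T cell markers summed to 400 and 491 CPM against 14.7 to 46.7 CPM. Glycam1, a gene of lymph node vessels, stood at 21.4 and 84.2 CPM in the same libraries and at no more than 0.608 CPM in the others. Ccl21a, another lymph node gene, was at 0 CPM in all sWAT libraries but Csn8AKO replicate 2, with 0.0453 CPM. Of the other lymph node markers, Ccl19 was highest in the pair (0.996 and 1.49 CPM, against at most 0.823 CPM). Cxcl13 stood at 11.7 and 60.7 CPM in the pair, with 21.3 and 18.4 CPM in Csn8AKO replicates 1 and 3. Madcam1 stood at 0.272 and 2.58 CPM in the pair, against 0 to 0.552 CPM in the others. In BAT, Csn8AKO replicates 1 and 5 held 114 and 200 CPM of 6 skeletal muscle markers against 1.34 to 2.44 CPM in the other BAT libraries.

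Macrophage markers also moved with genotype. All 12 on the list were detected in every library; 8 of them were called higher in Csn8AKO sWAT and 11 in Csn8AKO BAT, with 0 lower. Their summed level ran from 896 to 1224 CPM in Ctrl and from 1379.9 to 2479 CPM in Csn8AKO sWAT, and from 85.0 to 123 CPM in Ctrl and from 295 to 392 CPM in Csn8AKO BAT. The groups did not overlap in either tissue (two-sided exact permutation tests, p = 0.0286 in sWAT and 0.00794 in BAT, the smallest these group sizes allow, and 0.0905 and 0.0603 after adjustment over 38 library measures). Other marker sums were separated too, each with the permutation p given above for its tissue. In BAT, T cell markers (4.81 to 6.44 CPM in Ctrl, 7.29 to 11.4 CPM in Csn8AKO) and fibroblast and progenitor markers (479 to 794 and 1103 to 2212 CPM) were higher without overlap. Neutrophil and Schwann cell markers were so in both tissues. In sWAT, brown adipocyte markers and pericyte and smooth muscle markers were lower without overlap. The part of cell numbers in the changes below was not tested.

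Promoter windows of RefSeq genes on GRCm38.p6, from 250 bases before to 50 bases after the start site, were at hand for 35 members (39 windows). The windows of the 4 receptors that were called in Csn8AKO sWAT are shown, since they differ widely in base composition. Capitals mark the letters TATAAA, which were searched on both strands and were found in 7 of the 39 member windows and in 13.6% of all 32851 windows of this length. The first base of the match in Eda2r lies 58 bases before the start site.
Eda2r promoter, chrX:97377160-97377459 (- strand): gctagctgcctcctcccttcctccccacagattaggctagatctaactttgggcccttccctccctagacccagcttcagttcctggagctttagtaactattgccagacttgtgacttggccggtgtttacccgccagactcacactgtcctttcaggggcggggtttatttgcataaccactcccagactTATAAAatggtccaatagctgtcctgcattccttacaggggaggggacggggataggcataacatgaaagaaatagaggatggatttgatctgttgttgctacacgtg
Tnfrsf11a promoter, chr1:105780473-105780772 (+ strand): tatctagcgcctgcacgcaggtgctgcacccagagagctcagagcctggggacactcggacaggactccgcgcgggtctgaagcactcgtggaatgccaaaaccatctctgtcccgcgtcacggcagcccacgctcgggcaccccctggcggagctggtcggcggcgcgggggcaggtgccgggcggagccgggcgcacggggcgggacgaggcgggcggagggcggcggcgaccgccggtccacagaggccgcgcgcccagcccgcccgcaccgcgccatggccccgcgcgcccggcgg
Tnfrsf1b promoter, chr4:145246821-145247120 (- strand): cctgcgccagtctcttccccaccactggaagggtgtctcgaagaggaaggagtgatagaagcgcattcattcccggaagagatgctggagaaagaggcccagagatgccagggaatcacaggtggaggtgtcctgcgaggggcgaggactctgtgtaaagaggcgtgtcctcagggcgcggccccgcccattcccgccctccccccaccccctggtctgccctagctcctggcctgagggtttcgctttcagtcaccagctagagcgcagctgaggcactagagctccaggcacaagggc
Tnfrsf21 promoter, chr17:43016305-43016604 (+ strand): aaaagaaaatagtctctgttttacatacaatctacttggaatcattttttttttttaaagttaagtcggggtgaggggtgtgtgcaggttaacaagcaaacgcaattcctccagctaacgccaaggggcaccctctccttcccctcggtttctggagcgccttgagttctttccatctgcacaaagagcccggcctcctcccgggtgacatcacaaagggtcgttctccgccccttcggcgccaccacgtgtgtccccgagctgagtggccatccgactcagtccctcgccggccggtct
The Eda2r window was 50.3% G and C with 5 CG pairs, and that of Tnfrsf21 was 53.7% with 17. Tnfrsf1b had 62.7% with 13 CG pairs, and Tnfrsf11a, a window of the CpG-rich kind, had 76.7% with 43, against a median of 52.7% and quartiles of 45.7% and 61.7% over all windows. A search for an AP-1 site (TGANTCA), a kappaB site and a p53 half-site found a match in 7, 4 and 4 of the member windows. The windows of Tnfsf13b overlap, and their AP-1 and p53 matches are the same bases, counted in both windows. Over all windows the shares were 7.81%, 8.46% and 8.36%. These 4 receptors had no match to those 3 motifs in these windows, which says nothing of sites elsewhere.

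Per kilobase of exon, the scale on which genes can be compared, the receptors for TNF and lymphotoxin led the family in Ctrl mice. Tnfrsf1a stood at 51.4 ± 5.74 CPM per kb in sWAT (SD, n = 4) and 34.9 ± 2.77 in BAT (SD, n = 5). Ltbr, the lymphotoxin beta receptor, came next at 26.3 ± 4.58 and 20.4 ± 1.36 CPM per kb. In both tissues these first and second places were separated by more than the SDs. Below them the order was less firm. In sWAT Tnfrsf14 (13.3 ± 2.78 CPM per kb) and Tnfrsf1b (12.8 ± 1.93) lay within their spread, and so did the ligand Tnfsf12 (7.55 ± 1.26) and the death receptor Fas (7.41 ± 1.90). Ltb ranked between them at 8.98 ± 15.4 CPM per kb, a mean that came from 1 library of the 4. In BAT the next places went to Tnfrsf21 (7.10 ± 0.937 CPM per kb) and Fas (6.05 ± 2.07), which did not differ beyond their spread, followed by Tnfsf10 (3.63 ± 0.569), the death ligand TRAIL. Tnf was low in either tissue, at 0.735 ± 0.645 CPM per kb in Ctrl sWAT and 0.255 ± 0.0957 in Ctrl BAT. The tissues were scaled separately, so that these levels are given side by side without a test.

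**Figure D1:**
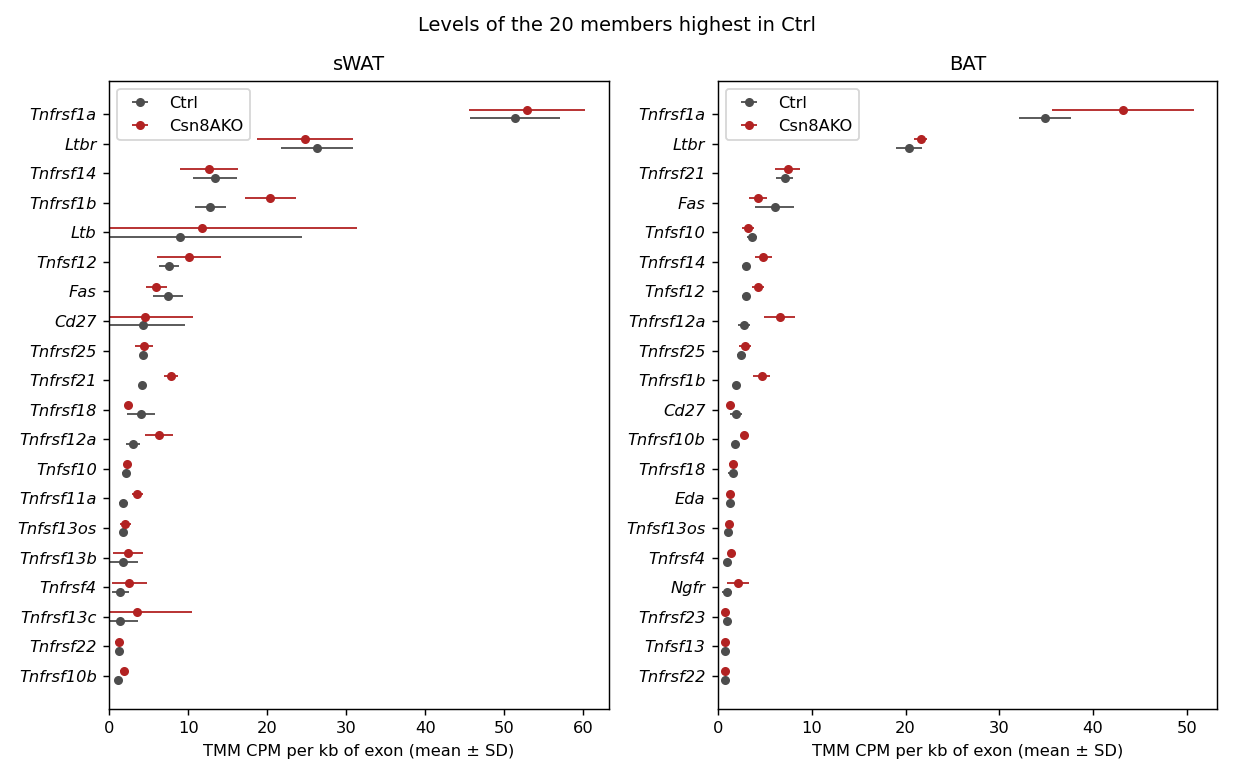
Mean TMM CPM per kilobase of exon (x axis) with SD for the 20 members with the highest Ctrl level in sWAT (left, 4 libraries per genotype) and BAT (right, 5 per genotype), Ctrl in gray and Csn8AKO in red, with bars cut at 0. Tnfrsf1a and Ltbr lead in both tissues, and the wide bars of Ltb and Cd27 in sWAT come from the pair of libraries rich in lymphocyte genes.

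In Csn8AKO sWAT, 4 members were called higher and 0 lower of the 34 with enough reads to be tested, that is 11.8% higher against 2.30% of all 18843 genes tested, of which 3.00% were lower. All 4 were receptors, namely Eda2r, Tnfrsf21, Tnfrsf11a and Tnfrsf1b. Of the 9 ligands tested, 0 were called by edgeR, DESeq2 or limma voom, and 0 had an unadjusted p under 0.05. The median log2 fold change was 0.43 over the 34 members, 0.57 over the 24 receptors and 0.39 over the 9 ligands, against 0.032 over all genes tested. In Csn8AKO BAT, 10 of 31 tested members were called higher and 0 lower. That is 32.3% against 16.0% of 22345 genes higher and 15.8% lower. They were 7 receptors (Eda2r, Tnfrsf11a, Tnfrsf1b, Tnfrsf12a, Tnfrsf10b, Tnfrsf14 and Tnfrsf13b) and 3 ligands (Tnfsf13b, Tnfsf12 and Ltb). The median over the 31 members was 0.30, against 0.0063 over all genes. Eda2r, Tnfrsf11a and Tnfrsf1b were called in both tissues. These counts describe members that passed a filter on low values and are not a test of the family as a whole.

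Scaling by library size alone took the sWAT calls of all 4 receptors away, with log2 fold changes that stayed between 0.60 and 1.62. Under that scaling 106 genes in all were called higher in sWAT, against 434. Without both lymphocyte-rich libraries 5 members were called higher in sWAT, the 4 receptors and Cd40, against 5.35% of all genes tested. Tnfrsf13c and Tnfrsf19 fell below the filter in that fit, so the members tested were not the same 34. In 6 of the 34 tested members every Csn8AKO library of sWAT lay above every Ctrl library, against 5.80% of all genes, and in 0 members below, against 8.23%. In BAT this held for 6 of 31 members, against 10.1% above and 10.9% below over all genes. Without both muscle-rich libraries 7 members were called higher in BAT, against 11.1% of all genes tested, and Ltb, Tnfrsf13b and Tnfsf12 were not. These 3 also missed the threshold when all 4 groups were fitted together (adjusted p = 0.576, 0.189 and 0.103).

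**Figure D2:**
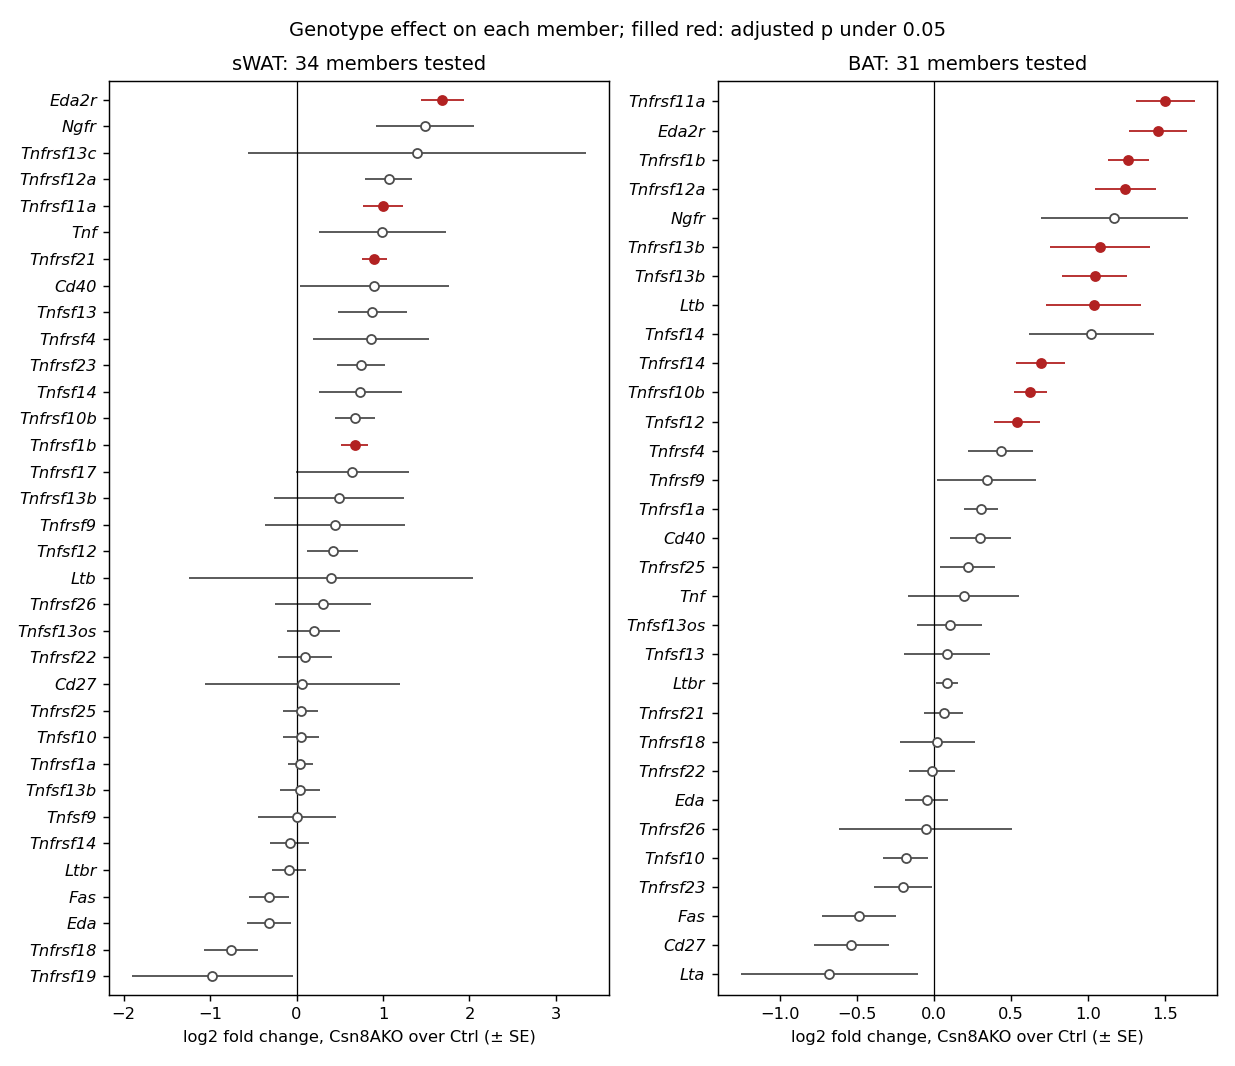
Log2 fold change of Csn8AKO over Ctrl (x axis, bars are the SE of the edgeR fit) for the 34 members tested in sWAT (left) and the 31 tested in BAT (right), where filled red points have an adjusted p under 0.05. The 4 called members of sWAT and the 10 of BAT lie above 0, and the widest bars in sWAT belong to Tnfrsf13c, Ltb and Cd27.

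Among the receptors of TNF, TNFR2 rose in both tissues and TNFR1 did not pass the test in either. Tnfrsf1b (ENSMUSG00000028599, chromosome 4, 145213463 to 145246870, minus strand, GRCm38) stood at 57.7, 39.7, 49.9 and 48.1 CPM in the Ctrl sWAT libraries, in the order of their replicate numbers, and at 67.8, 88.7, 88.2 and 66.5 CPM in the Csn8AKO libraries. The lowest Csn8AKO value lay above the highest Ctrl value. The means were 48.8 ± 7.37 and 77.8 ± 12.3 CPM (SD, n = 4), a 1.59-fold difference (log2 fold change 0.67 ± 0.16 SE, adjusted p = 0.0364). The sWAT call was lost when Ctrl replicate 2, 3 or 4 or Csn8AKO replicate 1 or 3 was left out, with adjusted p of 0.113, 0.106, 0.111, 0.0561 and 0.122, respectively. Without both lymphocyte-rich libraries it held (log2 fold change 0.69, adjusted p = 0.02). In BAT the Ctrl libraries had 7.39, 8.67, 6.89, 7.38 and 6.94 CPM and the Csn8AKO libraries 17.6, 13.2, 17.1, 18.4 and 22.9 CPM. Again the groups did not overlap, and the rise was 2.39-fold (log2 fold change 1.26 ± 0.13 SE, adjusted p = 1.2e-05), called whichever of the 10 libraries was left out.

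Tnfrsf1a, the ubiquitous death domain receptor of TNF, was the most abundant member and changed little. Its values were 119, 149, 142 and 122 CPM in Ctrl and 119, 124, 146 and 159.5 CPM in Csn8AKO sWAT (log2 fold change 0.04 ± 0.15 SE, adjusted p = 0.909). In BAT they were 83.7, 82.1, 93.3, 94.9 and 98.5 CPM in Ctrl and 95.7, 87.7, 128, 115 and 132 CPM in Csn8AKO mice. Csn8AKO replicates 3, 4 and 5 lay above all Ctrl libraries, and replicates 1 and 2 among them. The BAT difference stood just outside the threshold (log2 fold change 0.31 ± 0.11 SE, adjusted p = 0.0521), and passed it with limma voom (adjusted p = 0.00941), under library size scaling (0.0443), and without Csn8AKO replicate 1 (0.029) or 2 (0.00808).

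The ligand Tnf was scarce, and its sWAT values followed the lymphocyte-rich libraries. It stood at 2.76, 0.962, 0.474 and 0.623 CPM in Ctrl and 1.16, 6.11, 1.10 and 1.20 CPM in Csn8AKO sWAT (log2 fold change 0.99 ± 0.73 SE, adjusted p = 0.515). Ctrl replicate 1 and Csn8AKO replicate 2 were the highest of their groups. Without this pair the Ctrl values ran from 0.474 to 0.962 CPM and the Csn8AKO values from 1.10 to 1.20 CPM, with no overlap, and the difference did not pass the test (log2 fold change 0.74, adjusted p = 0.343). In BAT the values were 0.620, 0.508, 0.210, 0.406 and 0.343 CPM in Ctrl and 0.624, 0.276, 0.344, 0.698 and 0.301 CPM in Csn8AKO mice, which overlapped (log2 fold change 0.19, adjusted p = 0.729). Only 292 reads in sWAT and 222 in BAT fell on Tnf over all libraries, and the SEs of 0.73 and 0.36 set the precision.

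RANK (Tnfrsf11a) was among the members with the largest increase in both tissues. This receptor drives the fusion and differentiation of osteoclast precursors of the macrophage lineage. The gene (ENSMUSG00000026321, chromosome 1, 105780718 to 105847981, plus strand) had 15.2, 9.67, 10.1 and 7.48 CPM in Ctrl sWAT and 17.6, 25.1, 24.8 and 17.5 CPM in Csn8AKO sWAT. The highest Ctrl value, that of replicate 1, was below the lowest Csn8AKO value, and the mean was 2.00-fold higher (log2 fold change 1.00 ± 0.23 SE, adjusted p = 0.0364). Leaving out Ctrl replicate 2, 3 or 4 or Csn8AKO replicate 1 or 3 ended the call (adjusted p = 0.115, 0.113, 0.103, 0.0611 and 0.12), while leaving out both lymphocyte-rich libraries did not (log2 fold change 1.14, adjusted p = 0.00714). In BAT the values were 2.64, 1.95, 1.19, 1.64 and 1.60 CPM in Ctrl and 5.23, 4.45, 5.05, 4.99 and 5.65 CPM in Csn8AKO mice. These groups were far apart, with a 2.83-fold rise (log2 fold change 1.50 ± 0.19 SE, adjusted p = 5.25e-05).

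The partners of RANK were close to undetected. RANK ligand (Tnfsf11) had 11, 0, 0 and 0 reads in the Ctrl and 2, 45, 0 and 0 reads in the Csn8AKO sWAT libraries, nearly all of them in the lymphocyte-rich pair. In BAT it had 1, 0, 0, 0 and 0 reads in Ctrl and 0, 0, 0, 6 and 0 in Csn8AKO libraries. Osteoprotegerin (Tnfrsf11b), the soluble decoy for that ligand, had 6, 4, 6 and 7 reads in Ctrl and 0, 16, 6 and 10 in Csn8AKO sWAT, and 2, 4, 0, 0 and 2 in Ctrl and 2, 0, 0, 2 and 0 in Csn8AKO BAT. Neither passed the filter in either tissue. On the list of 9 genes of osteoclast fusion and bone matrix, 2 of 6 tested were called higher in sWAT and 2 of 7 in BAT, with 0 lower and medians of 0.35 and 0.03, against 2.30% and 16.0% of all genes called higher. Atp6v0d2, a subunit of the vacuolar proton pump found in osteoclasts and lipid-laden macrophages, was called in both, and rose in BAT from 0.129 ± 0.0298 to 8.30 ± 1.43 CPM (log2 5.97, adjusted p = 1.41e-09). Dcstamp, a fusion protein, was the other in sWAT, from 0.364 ± 0.187 to 1.60 ± 0.476 CPM (log2 2.10, adjusted p = 0.027). Ctsk, a collagen-cutting protease, was the other in BAT, from 3.23 ± 0.337 to 7.57 ± 1.43 CPM (log2 1.23, adjusted p = 3.63e-05).

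Eda2r, the X-linked receptor of the A2 form of ectodysplasin and a known p53 target, had the largest log2 fold change among called members of sWAT. The gene (ENSMUSG00000034457, chromosome X, 97333840 to 97377216, minus strand) had 1.67, 1.32, 1.54 and 1.92 CPM in Ctrl and 6.44, 4.71, 5.65 and 3.96 CPM in Csn8AKO sWAT. Its level was low but every Csn8AKO library was above every Ctrl library. The means were 1.61 ± 0.253 and 5.19 ± 1.08 CPM (SD, n = 4), 3.21-fold apart (log2 fold change 1.68 ± 0.25 SE, adjusted p = 0.00612), and no single library decided the call, which held in 8 of 8 fits without 1 of them. In BAT the values were 1.27, 1.22, 0.952, 1.11 and 1.08 CPM in Ctrl and 4.34, 2.60, 2.78, 2.90 and 2.67 CPM in Csn8AKO mice. Csn8AKO replicate 1 was the highest, and without it and replicate 5 the difference remained (log2 fold change 1.30, adjusted p = 0.000388, against log2 fold change 1.45 ± 0.19 SE, adjusted p = 5.35e-05 over all libraries).

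The ligand Eda was not called in either tissue, and the second receptor of this branch was scarcely detected. Eda had 5.75, 8.15, 7.82 and 5.66 CPM in Ctrl and 6.25, 3.30, 6.48 and 5.91 CPM in Csn8AKO sWAT, which overlapped (log2 fold change -0.32, adjusted p = 0.542). In BAT it had 11.0, 10.6, 8.55, 7.77 and 7.27 and 8.05, 7.25, 9.42, 9.18 and 9.73 CPM (log2 fold change -0.05, adjusted p = 0.833). Edar, the receptor of the A1 form, was not tested. It had 6, 0, 2 and 1 reads in Ctrl and 2, 2, 0 and 0 in Csn8AKO sWAT, and 3, 1, 5, 4 and 2 in Ctrl and 8, 6, 0, 14 and 0 in Csn8AKO BAT. Edaradd, the adaptor of Edar, rose in BAT from 0.120 ± 0.0524 to 0.398 ± 0.0742 CPM (log2 1.77, adjusted p = 0.0018). Of the 16 p53 target genes on the list, which does not hold members, 3 of 15 tested were called higher in sWAT and 8 of 16 in BAT, with 0 lower and medians of 0.43 and 0.53, against 2.30% and 16.0% of all genes called higher. Those of sWAT were Cdkn1a, Bax and Trp53inp1. Cdkn1a, the cell cycle inhibitor p21, went from 11.7 ± 2.55 to 56.3 ± 15.3 CPM (log2 2.26, adjusted p = 0.0015) there.

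Of the death receptors, Tnfrsf21 was called higher in sWAT and Tnfrsf10b in BAT, while Fas passed the test in neither. Tnfrsf21 (DR6; ENSMUSG00000023915, chromosome 17, 43016555 to 43089189, plus strand) carries a death domain and is known from neurons and from T and B cells. It had 15.5, 19.6, 15.8 and 17.6 CPM in Ctrl and 28.4, 34.4, 35.9 and 29.2 CPM in Csn8AKO sWAT. The groups were clearly separated, at 17.1 ± 1.90 and 32.0 ± 3.71 CPM (SD, n = 4), and the 1.87-fold rise was called in all 8 fits that left out 1 library (log2 fold change 0.90 ± 0.14 SE, adjusted p = 0.00716). In BAT the values were 29.2, 27.5, 27.7, 35.7 and 25.7 CPM in Ctrl and 39.1, 23.5, 28.3, 31.0 and 30.4 CPM in Csn8AKO mice. The groups overlapped, with Csn8AKO replicates 1 and 2 the highest and the lowest of all (log2 fold change 0.06 ± 0.13 SE, adjusted p = 0.739).

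Tnfrsf10b, the mouse TRAIL receptor and another gene that p53 can induce, had 11.9, 9.42, 9.54, 9.34 and 9.36 CPM in Ctrl and 16.8, 12.8, 15.3, 16.0 and 15.4 CPM in Csn8AKO BAT. No values overlapped and the rise was 1.54-fold (log2 fold change 0.63 ± 0.11 SE, adjusted p = 0.000587). In sWAT it had 6.47, 7.65, 6.28 and 4.78 CPM in Ctrl and 6.81, 11.0, 9.65 and 12.9 CPM in Csn8AKO mice. There 1 Ctrl library was above the lowest Csn8AKO library and the difference was not called (log2 fold change 0.68 ± 0.23 SE, adjusted p = 0.131), except when all 4 groups were fitted together (log2 fold change 0.66, adjusted p = 0.0205). Its effect was not shown to differ between the tissues (difference -0.06 ± 0.23 SE, adjusted p = 0.941). TRAIL itself (Tnfsf10) stood at 15.3, 9.57, 9.65 and 9.81 and 11.2, 14.1, 10.8 and 9.65 CPM in Ctrl and Csn8AKO sWAT, and at 20.6, 16.5, 20.4, 22.6 and 15.5 and 19.9, 15.9, 11.7, 19.7 and 16.7 CPM in BAT. It was not called in sWAT (log2 fold change 0.05, adjusted p = 0.926) or BAT (log2 fold change -0.18, adjusted p = 0.377).

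Fas, the receptor of FAS ligand, had lower Csn8AKO means in both tissues, and neither difference was called. Its values were 10.9, 20.3, 16.0 and 14.0 CPM in Ctrl and 12.0, 13.8, 8.55 and 14.7 CPM in Csn8AKO sWAT (log2 fold change -0.32 ± 0.23 SE, adjusted p = 0.498). In BAT they were 10.6, 11.8, 6.63, 16.6 and 16.7 CPM and 11.7, 9.22, 8.45, 8.93 and 6.12 CPM (log2 fold change -0.49 ± 0.24 SE, adjusted p = 0.143). Ctrl replicate 3 was the lowest Ctrl library of BAT, and without it Fas was called lower (log2 fold change -0.65, adjusted p = 0.0207). Fasl, made by cytotoxic lymphocytes, was below the filter in each tissue and was not tested within either. It had 6, 4, 6 and 10 reads in Ctrl and 11, 22, 0 and 6 in Csn8AKO sWAT. In BAT it had 4, 9, 2, 4 and 2 in Ctrl and 12, 4, 4, 14 and 14 in Csn8AKO libraries.

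Fn14 (Tnfrsf12a; ENSMUSG00000023905, chromosome 17, 23675445 to 23677468, minus strand), the receptor of TWEAK and a gene induced by growth factors and tissue injury, was higher in every Csn8AKO library of both tissues than in any Ctrl library. In sWAT it had 6.38, 8.05, 4.32 and 4.47 CPM in Ctrl and 8.66, 16.2, 10.0 and 13.8 CPM in Csn8AKO mice. The 2.09-fold difference missed the threshold by little (log2 fold change 1.06 ± 0.27 SE, adjusted p = 0.0509). It passed with DESeq2 (adjusted p = 0.00601), limma voom (0.0142), RLE scaling (0.0498) and all 4 groups in one fit (0.0128). It also passed with no filter on low counts (0.0318), ribosomal RNA genes left out (0.0466) and the B cell marker level as a covariate (0.0237). It did not pass under library size scaling (0.282), without the lymphocyte-rich pair (0.0658) or in any of the 8 fits with a library left out (0.0566 to 0.151). In BAT the values were 5.64, 7.30, 4.11, 5.26 and 4.53 CPM in Ctrl and 8.06, 10.9, 15.4, 15.9 and 13.2 CPM in Csn8AKO mice. The 2.36-fold rise was called (log2 fold change 1.24 ± 0.20 SE, adjusted p = 0.000322).

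TWEAK itself (Tnfsf12), a cytokine of many cell types, rose in BAT, from 5.12, 3.46, 4.81, 4.74 and 4.16 CPM in Ctrl to 7.35, 4.93, 7.22, 5.96 and 6.82 CPM in Csn8AKO mice. Csn8AKO replicate 2 lay within the Ctrl range (log2 fold change 0.54 ± 0.15 SE, adjusted p = 0.0142). Without both muscle-rich libraries the difference was not called (log2 fold change 0.44, adjusted p = 0.0946). In sWAT Tnfsf12 had 9.01, 12.1, 11.1 and 13.6 and 17.3, 7.29, 21.7 and 14.8 CPM. The Csn8AKO values spanned the Ctrl range (log2 fold change 0.42, adjusted p = 0.481). Of its exon bases 48.3% also belong to Tnfsfm13, a readthrough gene on the same strand, and reads on them may not have been counted. Tnfsfm13 was not called in sWAT (adjusted p = 0.75) or BAT (adjusted p = 0.533).

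**Figure D3:**
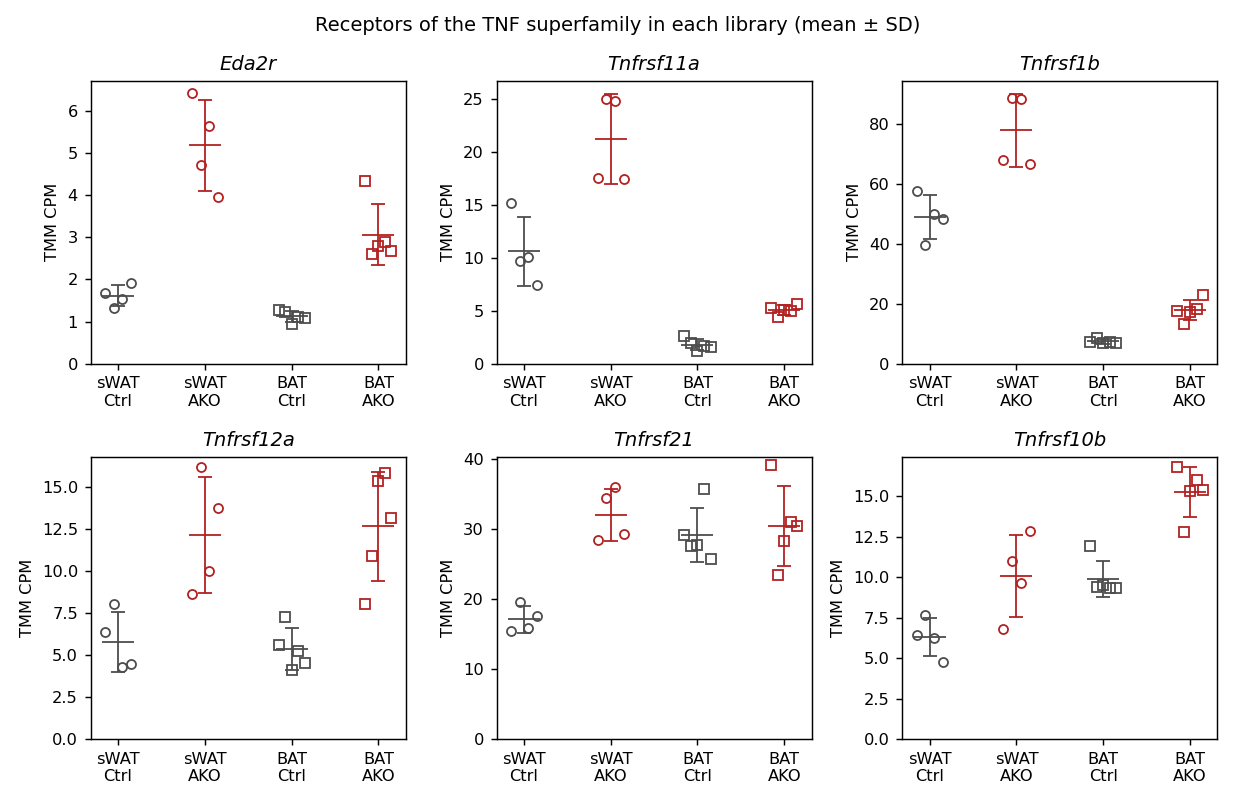
TMM CPM of 6 receptors (y axes, each from 0) in each library of sWAT (circles) and BAT (squares), Ctrl in gray and Csn8AKO (AKO) in red, with the mean and SD of each group. Eda2r, Tnfrsf11a, Tnfrsf1b and Tnfrsf12a lie higher in all Csn8AKO libraries of both tissues, Tnfrsf21 in sWAT and Tnfrsf10b in BAT.

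BAFF (Tnfsf13b), the myeloid cytokine that keeps B cells alive, was called higher in BAT and not in sWAT. In BAT it had 0.569, 0.525, 0.694, 0.664 and 0.901 CPM in Ctrl and 1.16, 1.34, 1.65, 1.26 and 1.57 CPM in Csn8AKO mice. The groups did not overlap, and the 2.06-fold rise was called in all 10 fits that left out 1 library (log2 fold change 1.04 ± 0.21 SE, adjusted p = 0.00182). In sWAT it had 8.60, 4.86, 6.34 and 6.44 and 7.78, 7.69, 6.69 and 4.79 CPM, which overlapped (log2 fold change 0.04 ± 0.24 SE, adjusted p = 0.945). TACI (Tnfrsf13b), a receptor of BAFF and APRIL, had 0.543, 0.390, 0.371, 0.295 and 0.415 CPM in Ctrl and 1.18, 0.315, 0.653, 0.848 and 1.14 CPM in Csn8AKO BAT. The rise was called (log2 fold change 1.07 ± 0.32 SE, adjusted p = 0.0211), but not without Ctrl replicate 4 (0.0507), Csn8AKO replicate 1 (0.0607) or Csn8AKO replicate 5 (0.0538), nor without both muscle-rich libraries (log2 fold change 0.65, adjusted p = 0.219). APRIL (Tnfsf13) was not called in either tissue (log2 fold change 0.88, adjusted p = 0.249 in sWAT and log2 fold change 0.09, adjusted p = 0.846 in BAT), and 60% of its exon bases are shared with Tnfsfm13.

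In the lymphotoxin branch, which shapes lymphoid organs, Ltb was called in BAT at a very low level. It had 0.801, 0.932, 0.371, 0.480 and 0.541 CPM in Ctrl and 1.60, 0.631, 1.10, 1.24 and 1.74 CPM in Csn8AKO BAT, with Csn8AKO replicate 2 inside the Ctrl range (log2 fold change 1.04 ± 0.31 SE, adjusted p = 0.0191). The call was lost without Csn8AKO replicate 5 (adjusted p = 0.0509) and without both muscle-rich libraries (log2 fold change 0.70, adjusted p = 0.168). HVEM (Tnfrsf14), the receptor of LIGHT, had 3.96, 4.52, 3.50, 4.85 and 4.69 CPM in Ctrl and 7.14, 4.65, 7.73, 7.17 and 8.02 CPM in Csn8AKO BAT. All Csn8AKO libraries but replicate 2 were above the Ctrl libraries (log2 fold change 0.69 ± 0.16 SE, adjusted p = 0.0043). Its ligand LIGHT (Tnfsf14) had means of 0.237 ± 0.126 and 0.465 ± 0.187 CPM (SD, n = 5) and was not called (log2 fold change 1.02, adjusted p = 0.0681). Ltbr, abundant in both tissues, had 50.6, 76.5, 59.2 and 61.5 and 53.5, 40.4, 66.3 and 72.8 CPM in Ctrl and Csn8AKO sWAT (log2 fold change -0.09, adjusted p = 0.849). In BAT it had 49.5, 48.6, 47.1, 43.1 and 51.7 and 51.6, 48.3, 52.5, 50.9 and 51.0 CPM (log2 fold change 0.08 ± 0.07 SE, adjusted p = 0.383).

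In sWAT, many members of lymphoid cells followed the pair of lymphocyte-rich libraries rather than the genotype. In 17 of the 46 members both Ctrl replicate 1 and Csn8AKO replicate 2 lay above all 6 other sWAT libraries, and among the 34 tested members this was so in 12, against 13.2% of all genes tested. Ltb had 48.6, 1.22, 1.07 and 3.58 CPM in Ctrl and 4.40, 62.3, 2.62 and 2.09 CPM in Csn8AKO mice. Cd27, a costimulatory receptor of T cells, had 28.3, 4.96, 2.96 and 3.89 and 4.68, 31.9, 2.62 and 2.62 CPM. Tnfrsf13c, the BAFF receptor of B cells, had 9.82, 0.101, 0.533 and 0.623 and 0.602, 28.3, 0.0689 and 0.150 CPM. In each of these the pair stood far above the rest, and the genotype difference was not called (adjusted p = 0.926, 0.984 and 0.755). Tnfrsf13b had 12.9, 2.43, 2.01 and 2.03 CPM in Ctrl and 4.91, 14.8, 3.65 and 3.81 CPM in Csn8AKO mice (log2 fold change 0.49, adjusted p = 0.778). Tnfrsf14 had 24.7, 18.2, 18.6 and 15.2 and 17.5, 25.7, 15.4 and 13.8 CPM, a smaller excess of the same pair (log2 fold change -0.08, adjusted p = 0.888). The other members of this kind were Tnf, Lta, Cd40lg, Tnfsf8, Tnfsf11, Tnfsf15, Tnfsf10, Cd40, Tnfrsf4, Tnfrsf9, Tnfrsf22 and Tnfrsf26. The ratio of the pair's mean to the mean of the other 6 libraries ran from 1.45 in Tnfsf10 and 1.53 in Tnfrsf14 to 55.1 in Tnfrsf13c and 82.1 in Tnfsf11. Leaving out Csn8AKO replicate 2 alone moved the log2 fold change of Ltb from 0.39 to -2.15, and that of Tnf from 0.99 to -0.08. The 4 receptors called in sWAT did not meet this rule, which their separation by genotype already fixes. In Tnfrsf1b and Tnfrsf11a the pair was nevertheless the highest library of its own genotype, at 57.7 and 88.7 CPM and at 15.2 and 25.1 CPM.

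**Figure D4:**
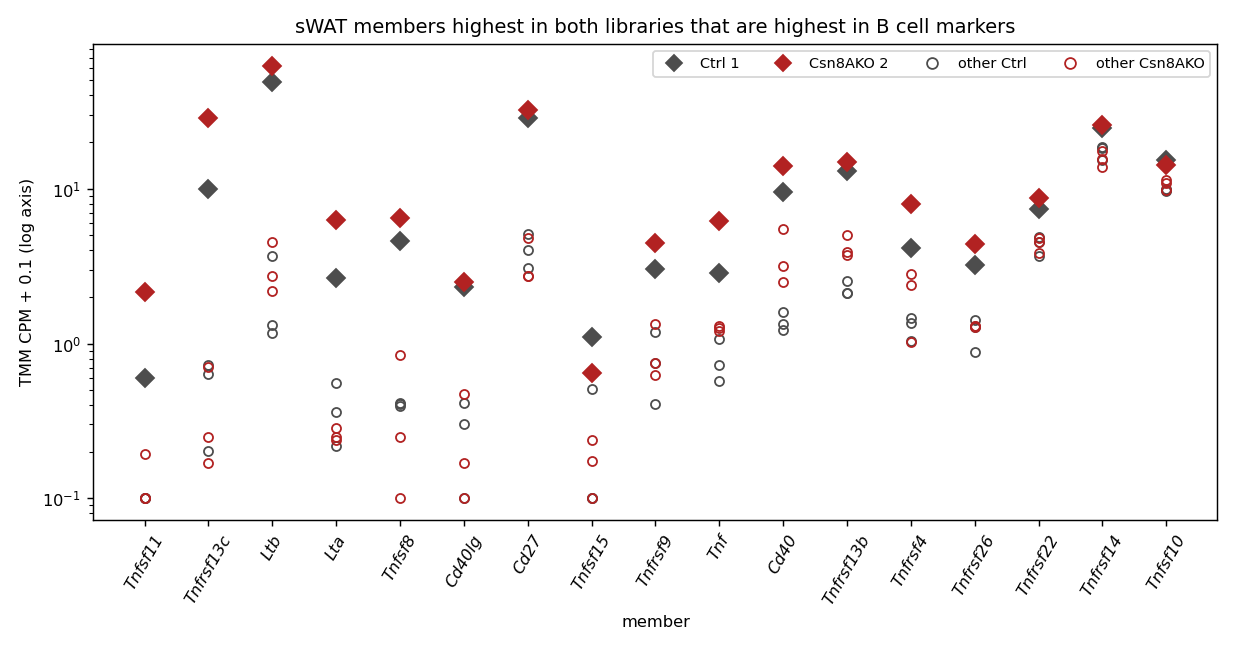
TMM CPM plus 0.1 (log axis) of the 17 members that are highest in both lymphocyte-rich libraries of sWAT, in order of the ratio of those libraries to the other 6, where diamonds are Ctrl replicate 1 (gray) and Csn8AKO replicate 2 (red), and open circles the other 3 libraries of each genotype. Both diamonds lie above all circles for each member, whichever genotype they belong to.

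Cd40, the costimulatory receptor of B cells, macrophages and dendritic cells, was called in sWAT when the pair was left out but not over all libraries. It had 9.41, 1.11, 1.24 and 1.51 CPM in Ctrl and 2.41, 14.0, 5.38 and 3.07 CPM in Csn8AKO sWAT and was not called (log2 fold change 0.90 ± 0.86 SE, adjusted p = 0.629). DESeq2 (adjusted p = 0.68) and limma voom (0.195) did not call it over all libraries either. Apart from the pair, the 3 Csn8AKO libraries lay above the 3 Ctrl libraries, and it was called (log2 fold change 1.48, adjusted p = 0.0335). The BAT libraries held 1.45, 1.91, 1.48, 2.14 and 1.80 and 2.53, 1.34, 2.34, 2.18 and 2.41 CPM, which overlapped (log2 fold change 0.30, adjusted p = 0.266). Ngfr, the low-affinity neurotrophin receptor of neurons and Schwann cells, had 2.72, 1.67, 0.888 and 0.727 and 1.30, 8.01, 3.72 and 3.89 CPM in sWAT (log2 fold change 1.48 ± 0.57 SE, adjusted p = 0.174). Its BAT values were 6.49, 3.69, 2.44, 1.59 and 2.47 CPM in Ctrl and 13.0, 2.13, 6.12, 7.03 and 8.66 CPM in Csn8AKO mice, with Csn8AKO replicate 2 the lowest of its group (log2 fold change 1.17 ± 0.47 SE, adjusted p = 0.0879). Ngfr in BAT was called with limma voom (adjusted p = 0.0131), without Ctrl replicate 1 (0.0268) and without Csn8AKO replicate 2 (0.0198). The summed level of 7 Schwann cell markers, which do not include Ngfr, was 53.7 to 66.9 CPM in Ctrl and 67.3 to 118 CPM in Csn8AKO BAT. All 7 were called higher by edgeR, against 16.0% of all genes, and 6 were called by DESeq2 and 6 by limma voom. In sWAT the sum was 95.5 to 103 CPM in Ctrl and 109 to 223 CPM in Csn8AKO mice. There 0 of the 6 tested were called by edgeR, 1 by DESeq2 and 0 by limma voom. The part of Schwann cell number in Ngfr was not tested.

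**Figure D5:**
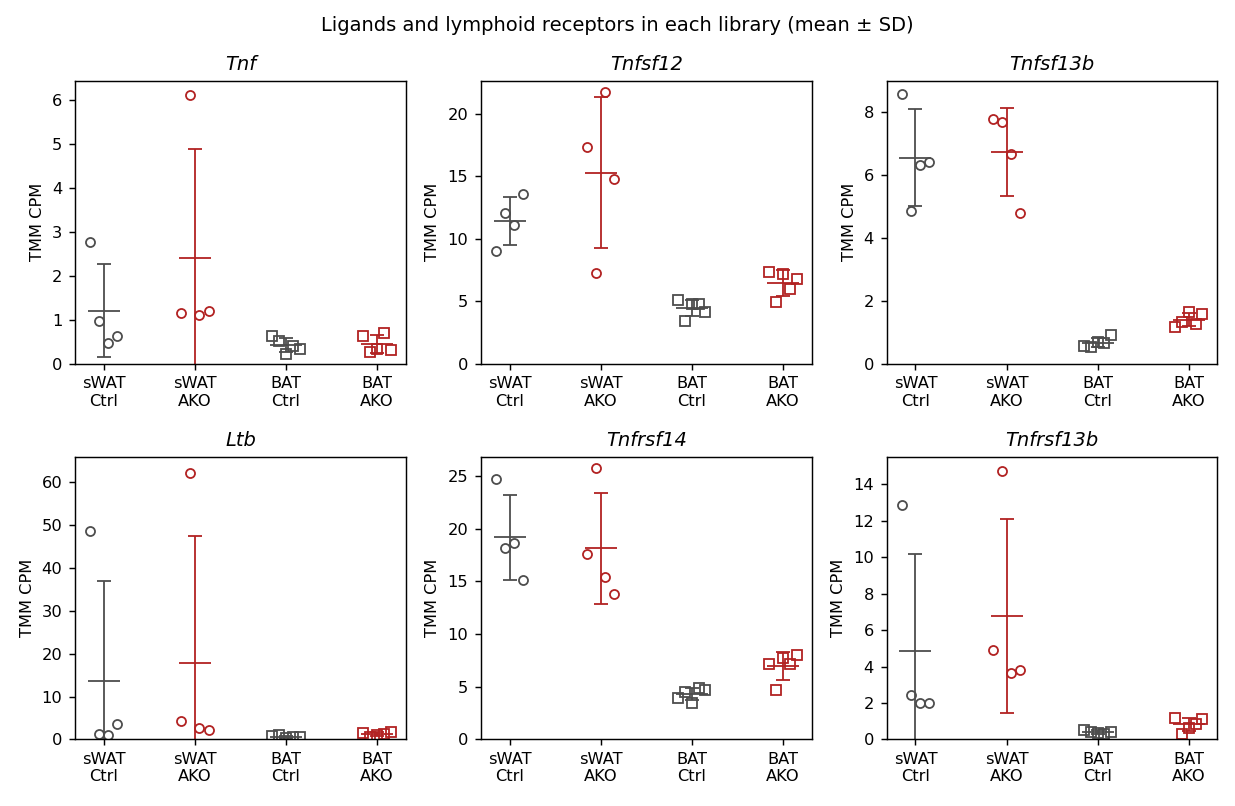
TMM CPM of 4 ligands and 2 lymphoid receptors (y axes, each from 0) in each library of sWAT (circles) and BAT (squares), Ctrl in gray and Csn8AKO (AKO) in red, with the mean and SD of each group. In sWAT, Ltb, Tnfrsf13b and Tnf are highest in Ctrl replicate 1 and Csn8AKO replicate 2, and in BAT Tnfsf13b lies higher in all 5 Csn8AKO libraries.

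The remaining members were not called by edgeR in either tissue. In sWAT they included Tnfrsf18 (GITR, a receptor of regulatory T cells), with 6.13 ± 2.63 CPM in Ctrl and 3.62 ± 0.546 CPM in Csn8AKO mice (SD, n = 4; log2 fold change -0.75, adjusted p = 0.209), of whose exon bases 27.2% lie opposite Gm16008. Tnfrsf19, a receptor of stem and progenitor cells, had 0.713 ± 0.530 and 0.332 ± 0.507 CPM (log2 fold change -0.97, adjusted p = 0.622). The decoy-like receptors Tnfrsf22, Tnfrsf23 and Tnfrsf26 lie side by side on chromosome 7 and resemble each other closely. Only uniquely aligned reads were counted, so reads matching more than 1 of these 3 receptors equally well would be left out. Of these, Tnfrsf23 was higher in all 4 Csn8AKO sWAT libraries, at 3.15, 3.26, 3.65 and 4.56 CPM against 2.58, 2.84, 1.66 and 1.61 CPM in Ctrl (log2 fold change 0.74, adjusted p = 0.159). Tnfrsf23 in sWAT was called with limma voom (adjusted p = 0.0362) but not with DESeq2 (0.136). Log2 fold changes of the other 2 ran from 0.10 to 0.31 in sWAT and from -0.05 to -0.01 in BAT. Tnfrsf25, the death receptor DR3, had log2 fold change 0.05, adjusted p = 0.924 in sWAT and log2 fold change 0.22, adjusted p = 0.384 in BAT. Tnfrsf9 (4-1BB), Tnfrsf17 (BCMA, a plasma cell receptor) and Tnfsf9 had log2 fold changes of 0.45, 0.65 and 0.01 in sWAT, with adjusted p of 0.816, 0.645 and 0.996. In BAT, Cd27 had 5.43, 6.23, 2.97, 4.78 and 2.90 CPM in Ctrl and 4.39, 2.92, 2.13, 3.17 and 2.64 CPM in Csn8AKO mice (log2 fold change -0.53, adjusted p = 0.111), and Lta, with 91 reads in all, was also not called (log2 fold change -0.68, adjusted p = 0.406). The antisense RNA Tnfsf13os was not called either (log2 fold change 0.20, adjusted p = 0.783, and log2 fold change 0.10, adjusted p = 0.752 in BAT).

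Below the filter lay 12 members in sWAT (9 ligands and 3 receptors) and 15 in BAT (9 ligands and 6 receptors), of which 11 were the same. Those of both tissues were the ligands Cd40lg, Cd70, Fasl, Tnfsf4, Tnfsf8, Tnfsf11, Tnfsf15 and Tnfsf18 and the receptors Edar, Tnfrsf8 and Tnfrsf11b. Lta was untested in sWAT alone, and Tnfsf9, Tnfrsf13c, Tnfrsf17 and Tnfrsf19 in BAT alone. The highest group mean among them was 1.82 CPM in sWAT, that of Tnfsf8 in Csn8AKO mice, and 0.395 CPM in BAT, that of Tnfrsf19 in Csn8AKO mice. Cd70 had 0 reads in the 8 sWAT libraries, where 3 reads in all would be 0.0201 CPM, and 2 reads in BAT. Tnfsf4 (OX40 ligand) had 13 reads in sWAT and 4 in BAT, and its receptor Tnfrsf4 had means of 1.36 ± 0.316 and 1.82 ± 0.357 CPM in Ctrl and Csn8AKO BAT (log2 fold change 0.43, adjusted p = 0.132). At this depth the members below the filter of a tissue could not be compared between the genotypes within that tissue.

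Whether the effect of genotype differed between the tissues was asked of 36 members, in a fit of the 18 libraries with a term for genotype by tissue. The filter of that fit also kept members of low count. Fasl (difference 0.91 ± 0.91 SE, adjusted p = 0.704) and Tnfrsf8 (2.35 ± 1.34 SE, adjusted p = 0.432) were below the filter within each tissue. Tnfsf9, Tnfrsf13c, Tnfrsf17 and Tnfrsf19 were below it in BAT. Tnfrsf21 was the 1 member called, with an effect smaller in BAT than in sWAT (difference -0.85 ± 0.19 SE, adjusted p = 0.0196), against 2.36% of all 22509 genes tested. The interaction lost its call without sWAT Ctrl replicate 3 (adjusted p = 0.0524) and under library size scaling (0.526). By adjusted p the next members were Tnfsf13b (0.99 ± 0.29 SE, adjusted p = 0.088), Tnfrsf19 (4.20 ± 1.38 SE, adjusted p = 0.13), Tnfrsf23 (-0.96 ± 0.32 SE, adjusted p = 0.137), Tnfrsf1b (0.57 ± 0.19 SE, adjusted p = 0.137) and Tnfrsf14 (0.76 ± 0.26 SE, adjusted p = 0.145), and these did not pass. Tnfrsf19 had the largest difference of the 36 and was called without the lymphocyte-rich pair (difference 6.40, adjusted p = 0.0235). It rests on few reads, with 12, 4, 11 and 28 in Ctrl and 2, 24, 0 and 2 in Csn8AKO sWAT. Its BAT libraries held 2, 3, 4, 0 and 2 reads in Ctrl and 33, 1, 0, 30 and 29 in Csn8AKO mice, so that Csn8AKO replicates 1, 4 and 5, of which 1 and 5 are the muscle-rich ones, carried nearly all of them. For Eda2r (-0.26 ± 0.29 SE, adjusted p = 0.746), Tnfrsf11a (0.48 ± 0.29 SE, adjusted p = 0.467) and Tnfrsf12a (0.17 ± 0.34 SE, adjusted p = 0.872) no difference between the tissues was detected at these SEs.

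The genes that carry signals away from these receptors were counted on a list of 46 adaptors, kinases, caspase regulators and NF-kB subunits. In sWAT 0 of 46 were called by edgeR (3 with an unadjusted p under 0.05, 1 called by DESeq2 and 1 by limma voom), against 5.31% of all genes in either direction, and the median log2 fold change was 0.22. In BAT 7 were called higher and 8 lower, that is 15.2% and 17.4%, with a median of 0.08. Over all genes the shares were 16.0% higher and 15.8% lower, or 31.9% in either direction, so the list was called about as often as other genes. The 3 higher genes with the smallest adjusted p were Traf1, Adam17 and Edaradd. Traf1, an adaptor that NF-kB itself induces, went from 1.16 ± 0.220 to 2.79 ± 0.632 CPM (log2 1.26, adjusted p = 0.000294). Adam17, the sheddase that frees TNF and its receptors from the cell surface, went from 54.1 ± 8.22 to 80.7 ± 8.97 CPM (log2 0.58, adjusted p = 0.00137). The 3 lower were Map3k5, Rbck1 and Bag4. Map3k5 encodes the stress kinase ASK1 and went from 86.2 ± 3.37 to 66.9 ± 2.31 CPM (log2 -0.36, adjusted p = 0.000667). Rbck1 encodes HOIL-1, a part of the linear ubiquitin ligase, and went from 117 ± 8.61 to 93.9 ± 2.88 CPM (log2 -0.32, adjusted p = 0.00363). Bag4, the silencer of death domains that binds TNFR1, went from 23.2 ± 3.77 to 16.6 ± 1.20 CPM (log2 -0.48, adjusted p = 0.00477).

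Among 22 genes that NF-kB is known to induce, of which 16 were tested in each tissue, 1 was called higher and 1 lower in sWAT, and 7 higher and 1 lower in BAT (medians 0.57 and 0.38). Over all genes 2.30% were higher and 3.00% lower in sWAT, and 16.0% and 15.8% in BAT. Cxcl10, an interferon-induced chemokine, was the lower one in both tissues, going from 15.3 ± 3.29 to 5.10 ± 0.948 CPM (log2 -1.58, adjusted p = 0.00396) in sWAT and from 6.13 ± 0.765 to 2.95 ± 0.635 CPM (log2 -1.04, adjusted p = 0.000297) in BAT. Tnfaip2 was called higher in both, from 14.8 ± 2.50 to 34.1 ± 4.24 CPM (log2 1.21, adjusted p = 0.00375) in sWAT and from 1.08 ± 0.0761 to 10.9 ± 3.16 CPM (log2 3.34, adjusted p = 1.21e-07) in BAT. Vcam1, an adhesion molecule, went from 8.13 ± 1.31 to 26.1 ± 2.75 CPM (log2 1.69, adjusted p = 5.51e-07) in BAT, and Tnfaip6, a secreted hyaluronan-binding protein, from 0.321 ± 0.107 to 1.60 ± 1.08 CPM (log2 2.31, adjusted p = 0.0014).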

How the data were processed

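The authors deposited raw counts per gene for each library. Per the labels and the study's methods, they sequenced ribosome-depleted total RNA as paired reads of 150 bases, aligned with STAR 2.7.9a to Ensembl release 101 (GRCm38) and counted unambiguous, uniquely aligned reads with featureCounts. The strand setting is not given in the sources used here, so reads of overlapping antisense genes cannot be told apart. Whole counts of 46 members were fitted with all other genes of a tissue in edgeR 4.0.16 (R 4.3.3): TMM factors, the filterByExpr filter (count 10, total 15), the robust quasi-likelihood test, and Benjamini-Hochberg adjustment over all genes tested, called under 0.05. The groups came from the labels, and the interaction of genotype and tissue was fitted over 18 libraries. Nothing in the labels says that each library came from a separate mouse, so p-values measure the spread between libraries. Summed marker levels were compared by exact permutation tests (scipy 1.17.1).

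The members and all lists were chosen with earlier results of these data known. Named are members called in either tissue, 20 members fixed by name, and at most 3 genes of a list per direction and tissue; on the p53 and osteoclast lists the genes were named after their values were seen. Alternatives were RLE and library size scaling, no filter, DESeq2 1.42.0, limma 3.58.1 voom, the replicate block, ribosomal RNA genes left out, each library left out, the lymphocyte-rich pair left out, and all 4 groups in one fit. The B cell covariate and the BAT fit without the muscle-rich libraries were added after seeing the data. The scripts were tested on simulated data. Promoter sequences and their coordinates are RefSeq's on GRCm38.p6.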

Additional observations from a re-analysis of the deposited data

Results flagged for a closer look

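Single libraries stood apart from the rest of their group in 16 of 92 combinations of member, tissue and genotype. The rule used flags about 1 in 20 where values are normally spread. Low counts are not, and a member read in only 1 library of a group is always flagged, so no excess over chance can be read from the 16. Among the 16, 9 lay in the lymphocyte-rich sWAT libraries. Ctrl replicate 1 stood apart in Ltb (48.6 CPM), Tnfrsf13b (12.9 CPM), Cd40 (9.41 CPM), Tnfsf10 (15.3 CPM) and Tnfsf11 (0.498 CPM), and Csn8AKO replicate 2 in Ltb (62.3 CPM), Tnfrsf13b (14.8 CPM), Tnf (6.11 CPM) and Tnfsf11 (2.04 CPM). In BAT, Ctrl replicate 1 was apart in Tnfrsf10b (11.9 CPM, against 9.34 to 9.54 CPM) and Ctrl replicate 2 in Tnfrsf1b (8.67 CPM, against 6.89 to 7.39 CPM), both toward the Csn8AKO values. Csn8AKO replicate 1 was above its group in Eda2r (4.34 CPM), replicate 2 below it in Tnfrsf14 (4.65 CPM), and replicate 5, which was rich in muscle genes, above it in Fasl (0.468 CPM). Tnfsf11 in BAT was read in Ctrl replicate 1 (0.0259 CPM) and Csn8AKO replicate 4 (0.0821 CPM) and was at 0 in the other libraries.

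The effect of genotype on Tnfrsf21 was called different between the tissues, by -0.85 on the log2 scale in BAT against sWAT (edgeR interaction, adjusted p = 0.0196). The effects were 0.90 in sWAT and 0.06 in BAT. It was the only member called, in a test that called 2.36% of all 22509 genes. The call was lost without sWAT Ctrl replicate 3 (adjusted p = 0.0524) and under library size scaling (0.526). Age and tissue are the same split here and cannot be told apart.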

How the results depend on the processing

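The 4 members called higher in sWAT became 0 under library size scaling, 2 (Eda2r and Tnfrsf21) with the replicate block, and 2 to 4 with a library left out, being 2 without Ctrl replicate 2, 3 or 4 or Csn8AKO replicate 1 or 3. DESeq2 called 5 members in sWAT, and limma voom called 6. For BAT, where edgeR called 10 members, DESeq2 called 10 and limma voom 14. With a library left out, 8 to 13 members were called higher in BAT. The TNF pathway genes called in sWAT went from 0 to 1 with DESeq2 (Tank), 1 with limma voom (Bag4), 3 with the B cell covariate and 2 in a joint fit of all 4 groups. In BAT the pathway count fell from 15 to 7 with all 4 groups in one fit, and the members called lower went from 0 to 1 (Cd27) with the replicate block and to between 0 and 1 with a library left out (Fas without Ctrl replicate 3, Cd27 without Csn8AKO replicate 1). The members with a called interaction went from 1 to 0 under library size scaling, 2 with DESeq2, 3 with limma voom, 2 without the lymphocyte-rich pair and 0 to 3 with a library left out (0 without sWAT Ctrl replicate 3, 3 without sWAT Csn8AKO replicate 2, 2 without BAT Csn8AKO replicate 2). The causes were not tested. Library size scaling moved the median of all genes by 0.13 in BAT and changed the calls over all genes there from 3585 higher and 3536 lower to 4183 and 2087, and in sWAT from 434 and 566 to 106 and 328.

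Replicate numbers are shared between genotypes, but same-numbered libraries did not deviate together (correlations of -0.39 to 0.22 in sWAT and -0.10 to 0.10 in BAT), so the replicate block was not used for pairing. Besides the counts above, it ended the sWAT calls of Tnfrsf1b (adjusted p = 0.137) and Tnfrsf11a (0.0905) and brought Tnfrsf1a in BAT past the threshold (0.0219).

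Directions that turned were all of values not called. Eda in BAT was 0.10 under library size scaling and 0.026 with limma voom (-0.05 in the report), Ltbr in sWAT 0.045 with limma voom, Tnfrsf1a in sWAT -0.065 and the Tnfrsf10b interaction 0.20 under library size scaling, Tnfrsf21 in BAT -0.079 without the muscle-rich libraries, and the Tnfsf12 interaction -0.025 without the lymphocyte-rich pair. With a library left out, sWAT log2 fold changes ran from -2.15 to 3.19 in Ltb, -0.081 to 1.80 in Tnf, -0.23 to 1.66 in Tnfrsf13b, -0.23 to 0.051 in Ltbr, -0.30 to 0.068 in Tnfrsf14, -0.050 to 0.10 in Tnfrsf1a, -0.068 to 0.24 in Tnfsf10 and -0.089 to 0.20 in Tnfsf13b. Those of BAT ran from -0.12 to 0.029 in Eda, -0.033 to 0.36 in Tnf and -0.036 to 0.15 in Tnfrsf21, and interactions from -2.09 to 3.12 in Ltb, -0.19 to 0.081 in Tnfrsf10b, -0.041 to 0.33 in Tnfrsf12a, -0.56 to 1.26 in Tnfrsf13b and -0.14 to 0.32 in Tnfsf12. Over all named members, 898 values kept direction and side of the threshold, 28 fell short of it, 23 newly passed it and 37 turned.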
